A study of Homo sapiens with 16 samples.

Results

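The binding of the ETS factors ERG and GABPα was described at 3 windows of the human genome that hold genes of T-cell identity. The windows were fixed by position in build hg18. The CD3 window was chr11:117640000-117760000 (CD3E, CD3D and CD3G), the BCL11B window was chr14:97700000-98900000 (BCL11B with its long distal flank) and the IKZF1 window was chr7:50250000-50500000. The members were the ChIP-seq peaks that start in these windows, 93 of the 155269 peaks called with MACS in 10 samples. Merging overlapping peaks of all samples gave 57 sites of 93526, with 7 sites in the CD3 window, 42 in the BCL11B window and 8 in the IKZF1 window. Sites are numbered along the chromosome within each window.

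Jurkat cells, an established T-cell leukaemia line, gave 2 replicates for ERG and 2 for GABPα. VCaP cells, an established prostate cancer line that carries the TMPRSS2-ERG fusion, served as the contrast with 3 samples for each target. These were named t0, which the labels do not explain, vehicle (ethanol) and R1881 (a synthetic androgen, 1 nM), the last pair after 48 h in charcoal-stripped serum, with 1 sample per target and treatment. No genotype was altered in any sample. The files hold peaks and no RNA, so the T-cell identity of Jurkat could not be checked against marker levels. For ERG, the labels and the study's methods give different antibody catalogue numbers. This conflict was not resolved and applies to every ERG value given here.

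CD3E, CD3D and CD3G encode the invariant ε, δ and γ chains that carry the signal of the T-cell receptor to the inside of the cell. BCL11B is a zinc-finger factor needed for commitment to the T lineage, and the gene-poor region beyond it carries T-cell enhancers. IKZF1 encodes Ikaros, a zinc-finger factor of lymphoid development. ERG and GABPα share the ETS DNA-binding domain, which reads a GGAA core. GABPα is the DNA-binding subunit of GABP and is known mainly from promoters. By the RefSeq order of protein-coding genes in GRCh38.p14, MPZL2 and UBE4A flank the CD3 genes, VRK1 and SETD3 flank BCL11B, and SPMIP7 and FIGNL1 flank IKZF1.

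RefSeq promoter sequences were at hand for CD3D, BCL11B and IKZF1. They are shown because the windows were named for these genes and the ETS core is the sequence that both factors read. Each runs from 250 bases before the gene's start to 10 bases after it, on the gene's strand in GRCh38.p14, with GGAA or its other-strand form TTCC in capitals, and with TTCCGG in capitals where it occurs. CD3D is at chr11:118342696-118342955 (minus strand), BCL11B at chr14:99272188-99272447 (minus strand) and the first of 3 IKZF1 starts at chr7:50304466-50304725 (plus strand).
CD3D: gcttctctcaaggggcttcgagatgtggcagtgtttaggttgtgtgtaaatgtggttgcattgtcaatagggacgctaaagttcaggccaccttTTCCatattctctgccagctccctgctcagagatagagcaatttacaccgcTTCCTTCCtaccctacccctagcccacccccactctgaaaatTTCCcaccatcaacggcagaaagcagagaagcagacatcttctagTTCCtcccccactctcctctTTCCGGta
BCL11B: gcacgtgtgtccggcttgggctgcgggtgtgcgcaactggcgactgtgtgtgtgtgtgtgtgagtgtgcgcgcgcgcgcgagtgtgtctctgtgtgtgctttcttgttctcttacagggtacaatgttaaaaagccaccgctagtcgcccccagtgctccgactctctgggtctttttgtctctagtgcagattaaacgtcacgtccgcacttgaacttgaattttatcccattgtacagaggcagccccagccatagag
IKZF1: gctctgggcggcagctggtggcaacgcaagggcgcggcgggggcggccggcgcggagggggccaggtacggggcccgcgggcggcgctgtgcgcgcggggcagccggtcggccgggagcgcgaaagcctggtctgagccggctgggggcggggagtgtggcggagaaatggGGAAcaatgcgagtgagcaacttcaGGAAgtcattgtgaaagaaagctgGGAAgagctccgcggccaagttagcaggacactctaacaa

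The CD3D promoter held 6 cores on either strand over 300 bases (the stretch shown and the next 40), against a median of 3 over all 35116 promoters of the table. One of them, TTCCGG at position 3 after the start, is the other-strand form of CCGGAA, which contains the GGAA core and was found in 17.2% of all promoters. The BCL11B promoter held no GGAA on either strand, whereas 95.5% of all promoters held at least 1. The first IKZF1 start had 3 cores, the other 2 starts had 9 and 2, and none had CCGGAA. A match is a description of letters and not a binding site. These sequences are in GRCh38.p14 and the peaks in hg18, so no peak was placed on a promoter, an exon or an intron.

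MACS gives each peak a score of 10 times the −log10 of p against input, and a score of 50, the lowest found, stands for 1e-05. A peak found by MACS and also by a second caller, SWEMBL, is called high confidence. The samples had 6963 to 23947 MACS peaks and 2 to 9769 high confidence intervals over the genome. Sequencing depth is unknown because these files hold no read numbers, and a score can rise with depth as well as with binding. Each score is therefore given with its rank, the percent of peaks of the same sample with a lower score.

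Jurkat GABPα had the most sites in the 3 windows. GABPα replicates 1 and 2 had 22 sites each with a MACS peak, of which 9 and 11 were at high confidence. ERG replicates 1 and 2 had 1 and 15 sites, of which 0 and 1 were at high confidence. In VCaP cells at t0, with vehicle and with R1881, GABPα had 2, 7 and 6 sites (1 at high confidence in each), and ERG had 3, 7 and 8 sites (0, 0 and 2 at high confidence). The GABPα replicates thus lay above all other samples at high confidence, while the ERG replicates differed from each other by more than the second one differed from GABPα in the number of MACS peaks.

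**Figure D1:**
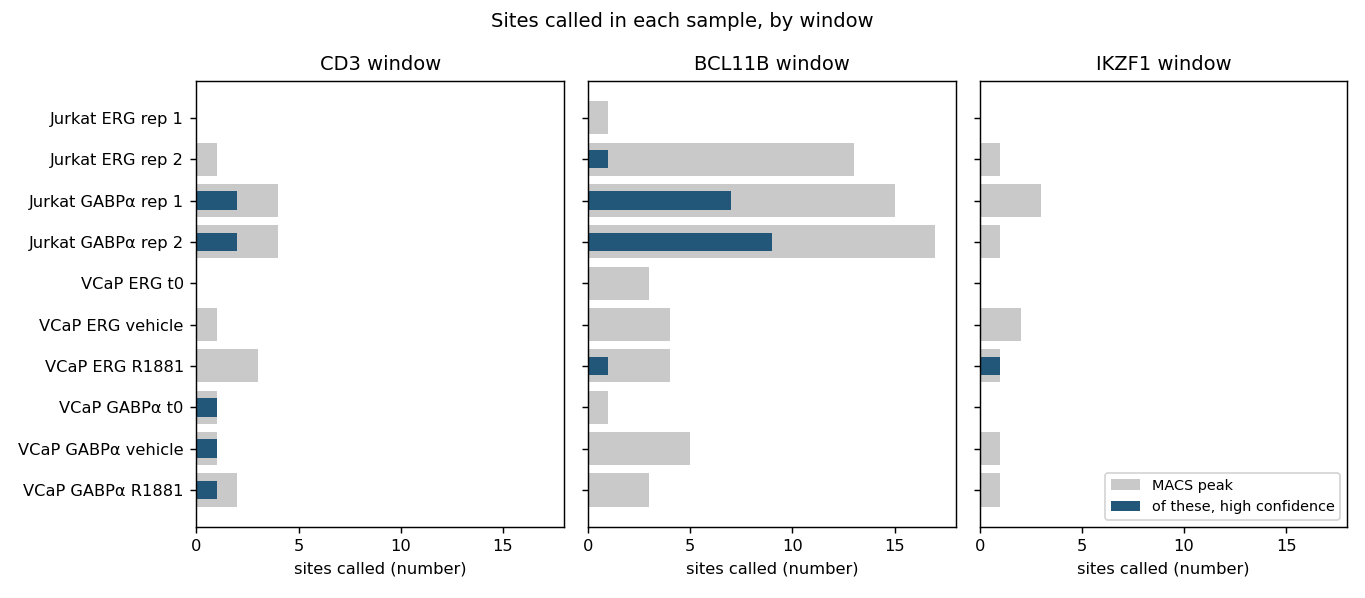
Number of sites called in each of the 10 samples (vertical axis) in the CD3, BCL11B and IKZF1 windows. Grey bars count sites with a MACS peak and blue bars those with a high confidence call. Jurkat GABPα had 7 and 9 high confidence sites in the BCL11B window, where no other sample had more than 1.

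At high confidence, the Jurkat means were 0.5 ± 0.707 sites for ERG and 10 ± 1.41 for GABPα (SD, n = 2 each), a difference of -9.5 sites. The exact permutation test over the 4 samples gave p = 0.333 (two-sided), which is the smallest p that 2 against 2 samples allow. Over the genome, MACS peaks with a high confidence call numbered 1103 and 1550 in the ERG replicates and 7043 and 8465 in the GABPα replicates, so the gap between the targets was not particular to the windows. Per 1000 such peaks, the windows held 0 and 0.645 sites for ERG and 1.28 and 1.3 for GABPα. For GABPα, Jurkat had 9 sites more on average than the 3 VCaP samples, with no overlap between them (9 and 11 against 1, 1 and 1). Here the exact permutation test gave p = 0.2 (two-sided), again the smallest possible. Per 1000 high confidence peaks, the VCaP values were 0.376, 0.178 and 0.191. For ERG, Jurkat (0 and 1) and VCaP (0, 0 and 2) overlapped and differed by -0.167 sites (exact permutation p = 1, two-sided). The t0 sample of VCaP ERG had only 2 high confidence peaks in the whole genome, so it could hardly hold a site in the windows. The vehicle sample had 743 such peaks and the R1881 sample 2046, with 0 and 0.978 sites per 1000 of them. Leaving t0 out gave a difference of -0.5 sites. This contrast therefore does not show whether the cell lines differ for ERG. The VCaP samples are 3 treatments and not replicates of one condition, so the last pair of tests treat the spread between treatments as error. The study's methods describe the ChIP replicates as biological, and the labels do not say how the Jurkat replicates were separated.

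Most high confidence GABPα calls in Jurkat recurred between replicates. Of 11 GABPα sites at high confidence in either replicate, 9 were found in both, 81.8% (exact Clopper-Pearson 95% interval 48.2 to 97.7%, which covers counting error only), beside 68.6% of the 9165 such sites over the genome. With MACS peaks alone, 15 of 29 sites (51.7%) were found in both, beside 56.0% over the genome. The genome share lay inside the interval of the first. The interval treats sites of the same 2 samples as independent, so this is not a test. None of the 16 ERG sites with a MACS peak was found in both replicates (17.1% of 18676 over the genome). Replicate 1 had 1 site, so no more than 1 of 16 could have been shared. At high confidence there was 1 ERG site in all, in replicate 2, and none could be shared (39.5% of 1826 over the genome). The windows therefore say nothing about how well ERG calls recur.

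With MACS peaks, the overlap of ERG and GABPα in Jurkat was near that over the genome, and the high confidence sites were too few to show a difference. At high confidence, 0 of 11 GABPα sites held an ERG call (exact 95% interval 0 to 28.5%, counting error only), beside 6.00% over the genome. The single ERG site held no GABPα call, beside 30.1%. With MACS peaks, 4 of 16 ERG sites (25%) also had a GABPα peak, close to the 28.7% over the genome, and 4 of 29 GABPα sites (13.8%) had an ERG peak, beside 19.3%. These were BCL11B sites 1, 3 and 18 and IKZF1 site 4. The other 12 ERG peaks lay 1122 to 136358 bp from the nearest Jurkat GABPα peak, with a median of 17104 bp.

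**Figure D2:**
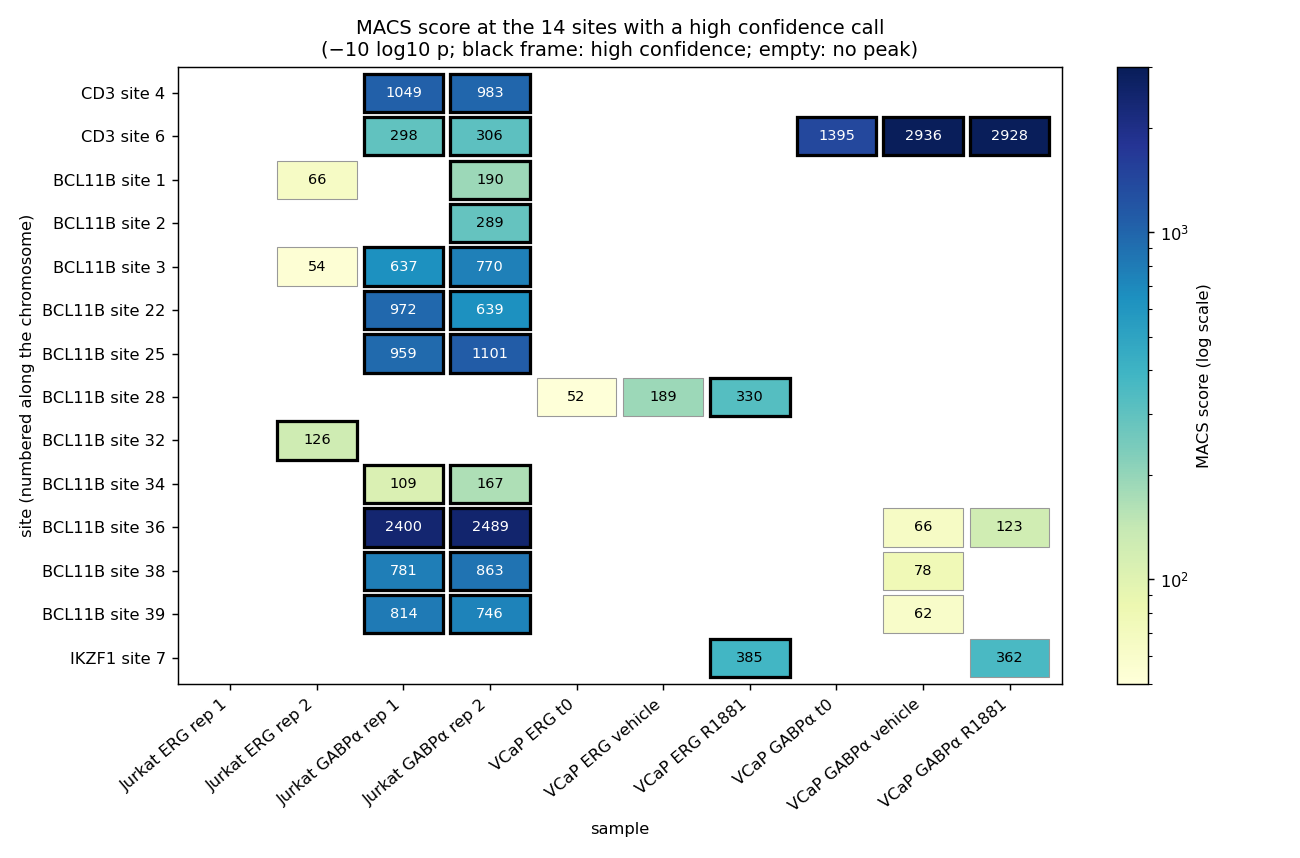
MACS score (colour on a log scale, value in each cell) at the 14 sites with a high confidence call in any sample (rows), in the 10 samples (columns). Black frames mark high confidence calls and empty cells have no peak. The GABPα columns of Jurkat are filled at 9 rows in both replicates, and CD3 site 6 is the row with calls in all 5 GABPα samples.

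The CD3 window held 2 strong GABPα sites of opposite kind. CD3 site 4 (chr11:117679934-117681320) scored 1049 and 983 in Jurkat GABPα replicates 1 and 2, above 96.2% and 95.6% of the peaks of the same samples. It was at high confidence in both replicates, and the other 8 samples had no peak there. CD3 site 6 (chr11:117734142-117736937) was called at high confidence in all 5 GABPα samples and in no ERG sample. Its score was 298 and 306 in Jurkat, and 1395, 2936 and 2928 in VCaP at t0, with vehicle and with R1881. The highest VCaP score was 9.6 times the highest Jurkat score, the reverse of the order of the number of sites in the window. It was also the 1 of 11 VCaP GABPα sites with peaks in all 3 treatments, beside 18.7% over the genome. By rank the order of the cell lines was the same, with 78.0% and 79.9% in Jurkat against 94.4%, 97.4% and 97.2% in VCaP.

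The remaining CD3 sites, named after their values were seen, had MACS peaks only. Site 2 had Jurkat GABPα scores of 211 and 207, and site 5, next to site 4, had 57.7 and 87.0. Site 7 was the one site of all 57 with ERG peaks in both cell lines. Its score was 58.6 in Jurkat ERG replicate 2, 53.6 in VCaP with vehicle and 144 with R1881, with no peak in the other 7 samples. Among the 13 VCaP ERG sites, 1 having a Jurkat ERG peak compares with 3.15% over the genome. Site 1 was called only with R1881 in VCaP, for ERG (74.2) and for GABPα (77.3), and site 3 only for ERG with R1881 (99.8).

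For density, chromosomes 1 to 22 and X were cut, up to the last peak, into tiles of the length of each window. The CD3 window (120 kb) held 2 high confidence GABPα sites in each Jurkat replicate, and 5.00% of 25145 tiles held as many or more. For MACS peaks of GABPα it held 4 in each, which 3.75% of tiles reached. The mean of 0.5 ± 0.707 ERG sites (SD, n = 2) was reached by 37.1% of tiles. In VCaP, the mean of 1.33 sites was reached by 14.6% of tiles for GABPα and 19.6% for ERG. Tiles were not matched for gene content, so the shares describe the genome as a whole.

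In the BCL11B window, the longest of the 3, GABPα was called at several strong sites in Jurkat and at none with high confidence in VCaP. It held 7 and 9 high confidence GABPα sites in Jurkat replicates 1 and 2, a mean of 8 ± 1.41 (SD, n = 2), against a median of 2 for tiles of the same length (1200 kb), and 8.51% of 2502 tiles held as many or more. With MACS peaks, the mean of 16 GABPα sites was reached by 14.1% of tiles and the mean of 7 ± 8.49 ERG sites by 21.3%. The mean VCaP numbers, 3 for GABPα and 3.67 for ERG, were below the tile medians of 4.33 and 5 and were reached by 64.9% and 65.1% of tiles. VCaP GABPα had 2661, 5623 and 5223 high confidence peaks over the genome at t0, with vehicle and with R1881, against 7043 and 8465 in Jurkat. The share of tiles without a high confidence VCaP GABPα site was not counted, so their absence here cannot be called particular to the window. For ERG in Jurkat the mean came from replicate 2, with 13 sites, while replicate 1 had 1, below the tile median of 3 and below the 3, 4 and 4 of the VCaP ERG samples.

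**Figure D3:**
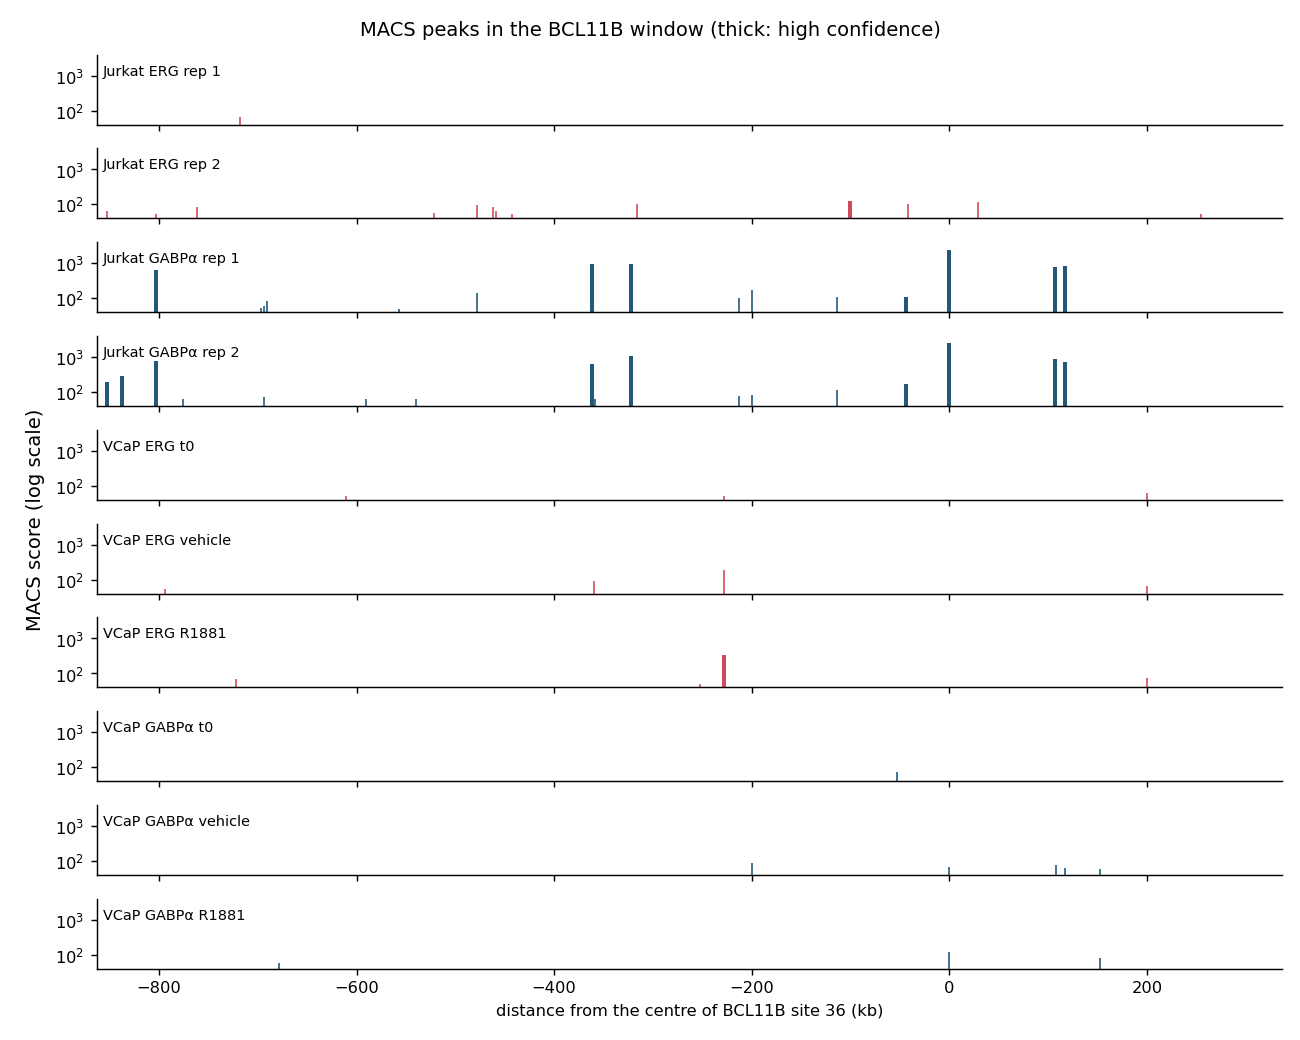
Map of the MACS peaks in the BCL11B window, one row per sample. The horizontal axis is the distance in kb from the centre of BCL11B site 36, the line height is the MACS score on a log axis, blue lines are GABPα, red lines are ERG, and thick lines are high confidence calls. Thick GABPα lines of Jurkat stand at the same 7 places in both replicates, with 2 more in replicate 2, and are spread over much of the window.

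BCL11B site 36 (chr14:98562186-98563330) was the strongest peak of the 3 windows in Jurkat. It scored 2399.9 and 2489 in GABPα replicates 1 and 2, above 99.6% of the peaks in each sample. In VCaP, GABPα had no peak there at t0 and scores of 65.6 with vehicle and 123 with R1881, without high confidence. The lowest Jurkat score was 19.5 times the highest VCaP score, and no ERG sample had a peak there. The site thus stood in the opposite order to CD3 site 6, where the VCaP samples were the higher ones. Site 36 was named for its Jurkat GABPα scores, so a higher score in Jurkat than in VCaP was favoured by that choice. The ranks of site 36 in VCaP were 22.1% and 49.3%. The part of depth in these differences was not tested.

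A neighbouring pair, sites 38 and 39 (chr14:98669798-98670673 and chr14:98679744-98680505), had the same pattern at lower scores. Site 38 scored 781 and 863 in the Jurkat GABPα replicates and 77.9 in VCaP with vehicle. Site 39 scored 814 and 746 in Jurkat and 62.5 in VCaP with vehicle. In both, the lowest Jurkat score was at least 10 times the VCaP score, and no peak was called in VCaP at t0 or with R1881.

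Sites 22 and 25, also named for their Jurkat GABPα scores, were found in Jurkat GABPα alone. Site 22 (chr14:98200956-98201515) scored 972 and 639, and site 25 (chr14:98240239-98241170) scored 959 and 1101. Neither had a peak in any of the other 8 samples. The difference between replicates at site 22, a ratio of 1.52, was the largest among the 9 sites found at high confidence in both, together with site 34.

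The other GABPα high confidence sites of the window fell outside the rule for named sites and were picked after their values were seen. Site 3 (chr14:97759745-97760665) scored 637 and 770, and ERG replicate 2 had a weak peak inside it, with a score of 53.5. Site 34 scored 109 and 167. Site 1 was called in replicate 2 only, with 190.5 (ERG replicate 2, 65.6), as was site 2, with 289. At site 2, replicate 1 had a SWEMBL region without a MACS peak.

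**Figure D4:**
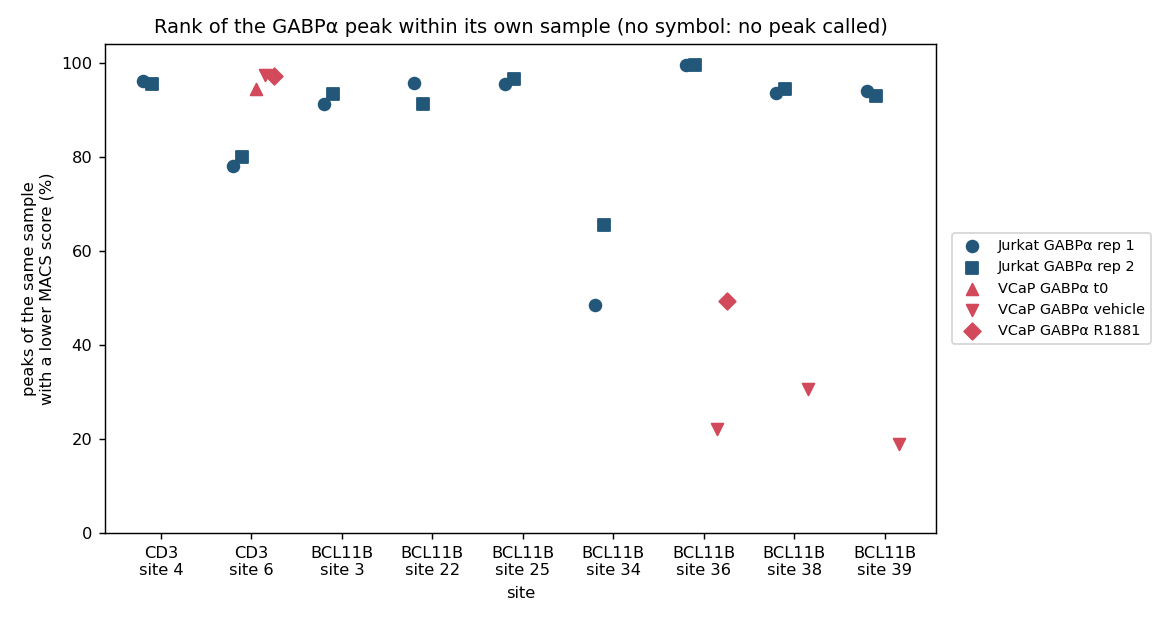
Rank of the GABPα peak within its own sample (percent of the peaks of that sample with a lower MACS score) at the 9 sites at high confidence in both Jurkat replicates. Blue symbols are the Jurkat replicates, red symbols the VCaP samples, and a missing symbol means no peak. At CD3 site 6 the red symbols are above the blue ones, and at BCL11B sites 36, 38 and 39 they are below. The sites shown were chosen by their Jurkat calls.

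The 9 recurrent GABPα sites had high confidence intervals with edges close together in the replicates. The starts differed by a median of 2 bp and the ends by 15 bp. The largest differences were 91 and 79 bp, at BCL11B site 25. MACS peaks could lie further apart, as at CD3 site 6, where they started at 117734765 and 117734142. Replicate 1 had the higher score at 3 sites and replicate 2 at 6. The replicates were called against the same input, so their calls are not fully independent. Of the 9 sites, 4 had a VCaP GABPα MACS peak (CD3 site 6 and BCL11B sites 36, 38 and 39), beside 46.5% over the genome. Only CD3 site 6 was at high confidence in VCaP, beside 38.1% over the genome. An ERG peak of Jurkat was found at 1 of the 9, BCL11B site 3, beside 19.1%.

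ERG binding around BCL11B in Jurkat came almost wholly from replicate 2. Site 32 (chr14:98461790-98462795) was its only high confidence call in the 3 windows, with a score of 126 and a rank of 80.6%. The next were site 37 (115), site 26 (106), site 35 (103) and site 18 (98.4), the last shared with GABPα replicate 1 (138). None of the 5 had an ERG peak in VCaP. Over the genome, 18676 sites had a Jurkat ERG MACS peak, and 1296 of these also had a VCaP ERG peak. Absence from VCaP was therefore the usual case. The single peak of ERG replicate 1 in all 3 windows was BCL11B site 8, with a score of 67.9, and replicate 2 had none there. Absence from replicate 1 therefore says nothing particular about the 5 sites. Replicate 1 had 7288 MACS peaks over the genome and replicate 2 had 15229, and per 1000 peaks the windows held 0.137 and 0.985 sites. On this scale replicate 2 was close to the GABPα replicates, which held 1.02 and 0.995 sites per 1000 MACS peaks. The part of depth in this difference was not tested.

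BCL11B site 28 (chr14:98334066-98334690) was named for its high confidence call in VCaP ERG. It scored 51.6 at t0, 189 with vehicle and 329.6 with R1881, and was at high confidence with R1881. Neither Jurkat target nor VCaP GABPα had a peak there. Over the genome, 3.15% of VCaP ERG sites had a Jurkat ERG peak, so the lack of a Jurkat ERG peak was the usual case. Site 41, chosen after its values were seen, was also called in all 3 VCaP ERG samples, with 61.5, 64.2 and 76.6. These were 2 of 13 VCaP ERG sites, beside 1.35% over the genome with peaks in all 3 treatments. This comparison was not planned, and the sites counted are the same 2, so the count is no support for the pattern. The scores at site 28 stood in the order of the peak numbers of the libraries (6963, 19504 and 23947), and with 1 sample per treatment no test of R1881 was possible.

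The IKZF1 window had no high confidence call in any Jurkat sample. Tiles of its length had a median of 0 high confidence Jurkat GABPα sites, so having none was not particular to this window. GABPα replicate 1 had peaks at sites 1, 4 and 6 (79.3, 65.5 and 53.5) and replicate 2 at site 3 (50.6), so no site recurred. ERG replicate 2 had a peak at site 4 (78.4), which overlapped that of GABPα replicate 1. The mean of 2 ± 1.41 GABPα sites was reached by 38.0% of tiles of the same length (250 kb), and the mean of 0.5 ± 0.707 ERG sites by 55.6% (SD, n = 2). In VCaP, the means of 0.667 GABPα and 1 ERG sites were reached by 56.4% and 51.1% of tiles. The window was thus near the middle of the genome for ERG and a little above it for Jurkat GABPα.

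The strongest IKZF1 peak was found in VCaP with R1881 and in no Jurkat sample. Site 7 (chr7:50378041-50378373) scored 385 for ERG, at high confidence and above 94.7% of the peaks of that sample. GABPα with R1881 scored 362 at the same place, above 70.1%, without high confidence. Neither target had a peak there with vehicle or at t0. With CD3 site 1, this made 2 of the 8 ERG sites with R1881 that had a GABPα peak with R1881 and no peak of either target without it, beside 5.62% of 23781 over the genome. This comparison was not planned, and its pattern is that of the same 2 sites, so the count is no support for it. With 1 sample per treatment, no test of R1881 was possible. The other IKZF1 peaks of VCaP were weak, 54.0 and 61.4 for ERG with vehicle (sites 5 and 8) and 55.6 for GABPα with vehicle (site 2).

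Within the samples, the peaks of the 3 windows were not uniformly strong. For Jurkat GABPα, their median score was 123.5 and 178.6 in replicates 1 and 2, beside 113.8 and 104.2 over all peaks of the sample. For Jurkat ERG replicate 2 it was 78.4, beside 69.8. For VCaP GABPα with vehicle it was 65.6, beside 139.8, although the highest peak of the windows reached 2936. VCaP GABPα had 733.1 at t0 over 2 peaks, beside 72, and 102.8 with R1881, beside 126.6. VCaP ERG had 51.6 at t0, 61.4 with vehicle and 88.2 with R1881, beside 57.5, 68.8 and 77.5, so the order relative to all peaks was not the same in all samples. The share of MACS sites at high confidence was 40.9% and 50.0% in Jurkat GABPα, beside 32.9% and 38.5% over the genome, while 1 of 15 was at high confidence in ERG replicate 2, beside 10.1%, and 0 of 1 in replicate 1, beside 15.0%. In VCaP at t0, with vehicle and with R1881, ERG had 0 of 3, 0 of 7 and 2 of 8, beside 0.0289%, 3.80% and 8.58%. For GABPα these were 1 of 2, 1 of 7 and 1 of 6, beside 28.0%, 39.7% and 34.8%, and all 3 calls were CD3 site 6.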

How the data were processed

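Peak files of 10 ChIP samples were analysed, and 6 input samples without files were not used. The authors aligned reads to hg18 with BWA 0.5.5, removed duplicates and reads of low alignment quality, and called peaks per sample against input with MACS and SWEMBL. Per the file headers, replicates and matched treatments of one target share an input. The deposited MACS score is −10 times log10 of the p-value. Of the deposited high confidence files, 7 hold this score and 3 hold another column of unstated meaning, which was not used. The deposited SWEMBL files gave interval positions only.

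The members, lists and rules were chosen with earlier results of these data known. MACS peaks of all samples were merged into sites, and a call counted at a site if it overlapped it by at least 1 bp. Groups came from the sample labels. Sites per sample were compared with two-sided exact permutation tests over samples, written in Python 3.11.15 with numpy 2.4.6. The exact intervals came from scipy 1.17.1, and overlap functions were tested on simulated data against bedtools 2.31.1. Named sites were, for CD3 and IKZF1, those with a high confidence call, and for BCL11B, those at high confidence in VCaP or for both targets in Jurkat, plus the 5 highest mean scores of each Jurkat target. Alternatives were SWEMBL regions, every MACS peak, scores of at least 100, other overlap rules, scaling per 1000 peaks, left-out samples and a replicate block. No hg18 sequence or annotation was used here, so nearest genes, distances and other T-cell genes were left out.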

Additional observations from a re-analysis of the deposited data

Results flagged for a closer look

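SWEMBL regions that no MACS peak overlaps are not among the MACS and high confidence sites of the report and were counted only in the alternative that uses SWEMBL regions alone. In the CD3 window, such a region was found in 2 samples, both Jurkat GABPα replicates, at chr11:117718581-117718765 and chr11:117718581-117718768 (185 and 188 bp). None of the 3 VCaP GABPα samples and none of the ERG samples had one there. It lies between CD3 site 5 and CD3 site 6. In the IKZF1 window, 1 sample, Jurkat ERG replicate 2, had such a region, at chr7:50395752-50395832 (81 bp). These regions are counted in the SWEMBL numbers of 11 and 12 for Jurkat GABPα and 0 and 2 for Jurkat ERG. Over the genome, 23.1% and 17.4% of the SWEMBL regions of Jurkat GABPα had no MACS peak, beside 1.89 to 2.54% in VCaP GABPα, and the share was 12% and 19.4% in Jurkat ERG.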

How the results depend on the processing

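Under the alternatives, 45 values of 7 results counted as unchanged, by the direction of the difference or, for shares, by counting error. The other 3 values reversed, all for ERG in Jurkat against VCaP. That difference, -0.167 sites at high confidence, became 2 with all MACS peaks (means of 8 and 6, exact permutation p = 0.8) and 0.333 with SWEMBL regions alone (means of 1 and 0.667, where Jurkat ERG replicate 2 gains the IKZF1 region without a MACS peak), and ranged from -0.667 to 0.333 when 1 Jurkat replicate was left out (0.333 without ERG replicate 1). The cause was not tested. GABPα in Jurkat minus VCaP went from 9 to 17 with all MACS peaks, and ERG minus GABPα in Jurkat from -9.5 to -14. ERG minus GABPα in Jurkat ranged from -10.5 to -8.5 and GABPα in Jurkat minus VCaP from 8 to 10 when 1 replicate was left out. No p could pass 0.05 in these designs, and p played no part in this count. The shares of Jurkat ERG sites with GABPα and in both replicates were 0 of 1. Their interval reached 97.5%, so even the 25% with GABPα under all MACS peaks counted as unchanged. A minimum MACS score of 100 repeated the main values. The count of 45 thus includes values that could hardly differ and says little about stability.

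The replicate numbers are shared only as labels. With the replicate block, ERG minus GABPα stayed at -9.5 (exact sign-flip p = 0.5, the smallest possible), and the overlap shares of the high confidence sites stayed at 0. With 2 pairs, the block says little. The share of ERG sites with GABPα had no value without replicate 2, since replicate 1 had no high confidence site. Unknown depth limits all comparisons of scores and of site numbers between samples.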
